A study of Homo sapiens with 10 samples.

Results

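Crotonate-treated primed hESCs were compared with endodermal cells across all genes expressed in either group. Both groups came from H9, an established human embryonic stem cell (hESC) line, in a version that carries a GFP reporter under LTR7, a retroviral promoter (of HERVH) that is active in pluripotent hESCs. The genotype label of both is WT. The treated cells were kept in mTeSR, a maintenance medium for hESCs, with 10 mM crotonate for 12 days. The endodermal cells were derived from the reporter hESCs in E8 medium with BMP4 and Activin A, with the GSK3 inhibitor CHIR99021 present only at the start, by the study's methods. Their treatment label is none, although a protocol text attached to every sample names crotonate, and the label was followed here. Their total time in culture was not given in the sources used here. Crotonate, the base medium and the differentiation factors therefore differ together between the groups, the duration may differ as well, and these cannot be told apart. There are 2 labelled samples per group, but only 1 deposited value per gene and group, and the 2 groups stand in separate tables. Every difference below is thus one between 2 values with no replicate check, and no SD, test or p-value can be given.

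Crotonate is a short-chain fatty acid that cells convert to crotonyl-CoA, the donor for lysine crotonylation, a protein mark that is placed by p300 among other enzymes. Definitive endoderm, the precursor of gut, liver and lung, forms from the primitive streak under Nodal or Activin signalling and is defined by the transcription factors SOX17 and FOXA2. BMP signalling directs streak cells towards lateral plate and extraembryonic mesoderm, and in cells that have not entered the streak it can give amnion-type epithelium. The study used the endodermal cells as a reference for the treated hESCs, and the values below show in which genes the groups differed.

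Of 19198 genes listed for both groups, 12814 reached 1 FPKM, a read count scaled to transcript length and sequencing depth, in at least one of them. They included 11643 genes at 1 FPKM or more in both groups, 766 in the crotonate-treated cells only and 405 in the endodermal cells only. Calls of higher or lower were made where log2(FPKM + 1) of the treated cells minus that of the endodermal cells was at least 1 in size, a scale on which the change of low genes is understated. By this rule 959 genes were higher in crotonate-treated cells (7.48% of measured genes), 629 were lower (4.91%) and 11226 were neither. After quantile normalization, which gives both columns the same distribution of values, 761 of 12772 genes were higher (5.96%) and 745 lower (5.83%), with 749 and 621 genes called the same way on both scales. Most genes lay close together, since 68.9% of them differed by less than 1.5-fold. Of the differences of at least 8-fold, 19 were higher and 59 lower in crotonate-treated cells. The median difference over all measured genes was 0.09 on the log2 scale, and it was 0.27 among genes with a mean level of 1 to 3 FPKM against -0.04 among those of 30 to 100 FPKM.

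**Figure D1:**
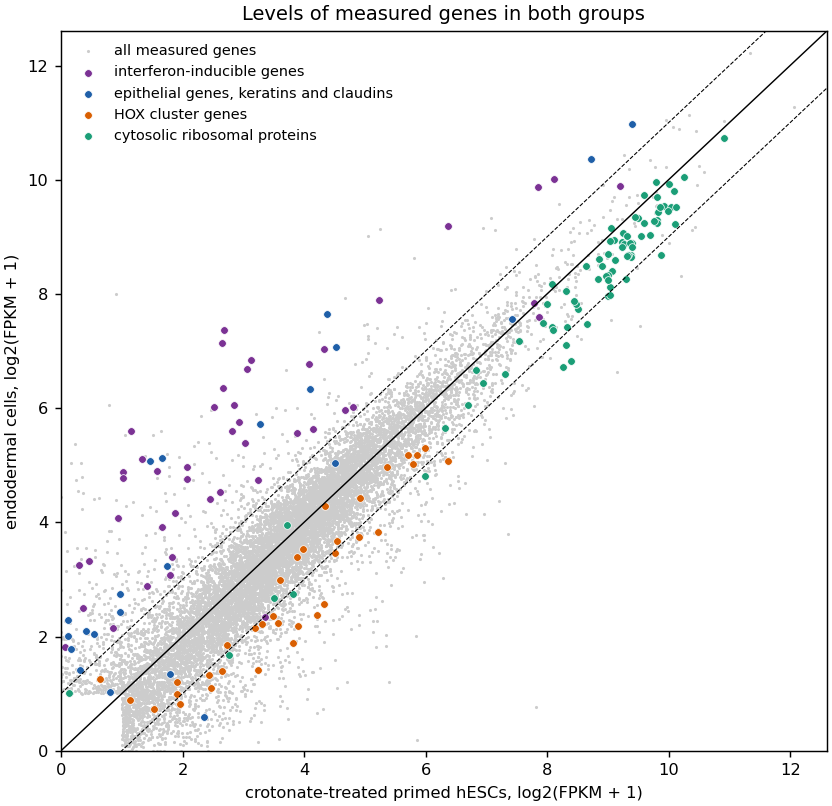
Each point is a measured gene, with its level in crotonate-treated primed hESCs on the x axis and in endodermal cells on the y axis, both as log2(FPKM + 1). The solid line marks equal levels and the dashed lines the 2-fold calling limits. Interferon-inducible and epithelial genes lie mostly above the upper dashed line, HOX genes mostly below the solid line, and 67 of 78 ribosomal protein genes within the limits.

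Depth was read from the steps of low values. Among 1097 genes below 0.2 FPKM in both columns, 80.9% had a ratio between the groups that came to a quotient of small whole numbers (at most 12, within 0.05%) once a common factor was removed, so each column keeps the step of 1 read. This factor put the effective library size of the endodermal column, with any normalization factor in it, at 1.22 times that of the treated column. At the transcript length of 3887 bases that is the median over genes, 1 FPKM stood for about 113 reads in the treated and 136 in the endodermal column. Counting error is thus probably small for most named genes above 1 FPKM, while the spread between cultures is unknown. In bulk RNA, fewer cells expressing a gene and less of its RNA per cell cannot be told apart.

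Of the 44 gene lists, the one with the most negative median difference held genes induced by interferons, cytokines that warn cells of viral nucleic acid and act through receptors on the cell surface. Of 45 such genes, all measured, 41 were lower in crotonate-treated cells, 1 was higher and 3 were neither, with a median difference of -2.66 against 0.09 over all genes. Both scales gave 41 members lower, of which 6 reached 1 FPKM in endodermal cells only. The summed level of the list was 1131 FPKM in untreated primed hESCs, 1897 FPKM in crotonate-treated cells and 5877 FPKM in endodermal cells.

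MX1, a GTPase that traps viral nucleocapsids, stood at 2.49 FPKM in untreated cells, 5.39 FPKM in crotonate-treated cells and 163 FPKM in endodermal cells, a ratio of 30.3 between the last 2. OAS2, which makes the second messenger that activates RNase L, was listed at 2.46, 5.24 and 141 FPKM in the same order. USP18, which removes ISG15 from proteins and restrains interferon receptor signalling, was listed at 6.57, 1.23 and 47.5 FPKM. The treated level was above the untreated one in MX1 and OAS2 and below it in USP18, and the endodermal level was far above both in each gene. ISG15, the ubiquitin-like modifier and the most abundant member of the list in endodermal cells, was at 114 FPKM in untreated, 275 FPKM in treated and 1028 FPKM in endodermal cells. IFI27, a mitochondrial protein of the interferon response, was at 0.527 FPKM in untreated hESCs and above that in both other groups, with the endodermal value the highest. The untreated level was below the endodermal one in all 41 genes, and the treated level was below the untreated one in 18 of them. IFITM3 (590 and 946 FPKM in treated and endodermal cells) and IFITM2 (219 and 228 FPKM), which block entry of viruses through endosomes, and BST2 (232 and 193 FPKM), which tethers budding virions, were not called. IFI30, a lysosomal thiol reductase, was called higher (9.20 and 4.09 FPKM), but not after quantile normalization.

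**Figure D2:**
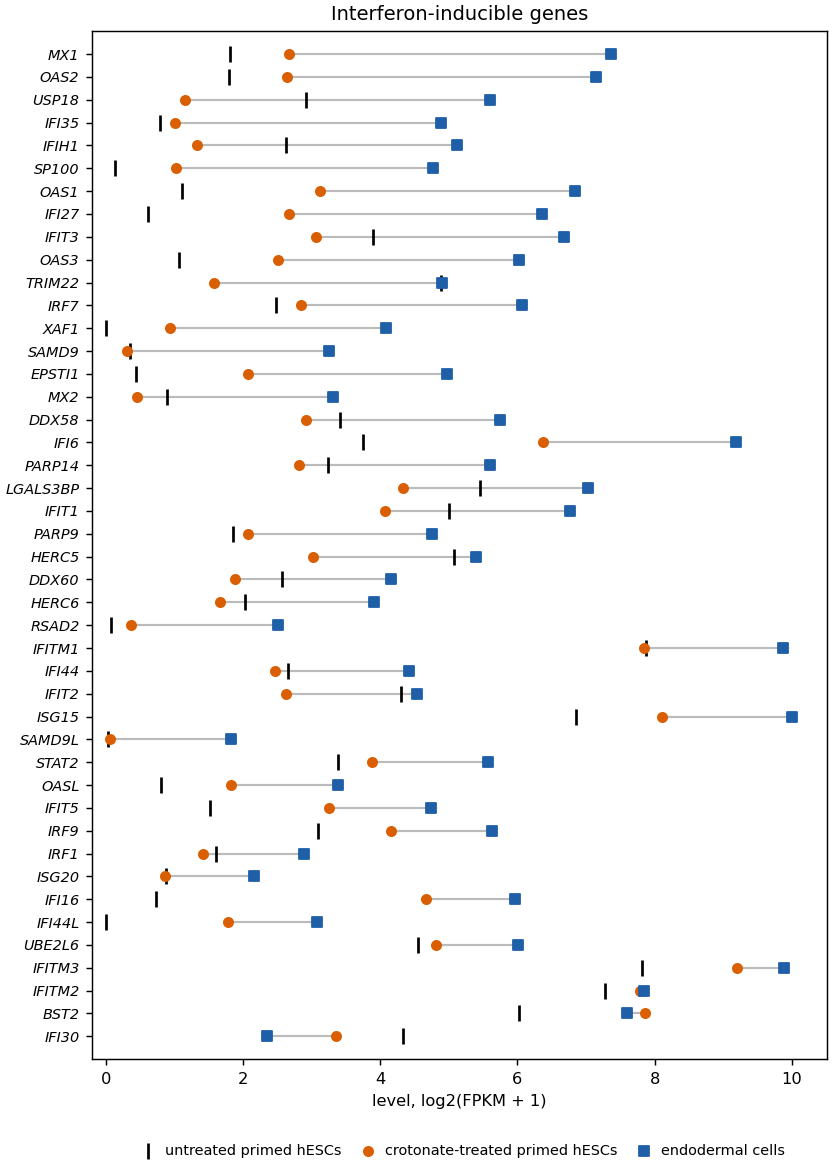
Levels of 44 of the 45 interferon-inducible genes as log2(FPKM + 1), ordered from the most negative difference at the top, in untreated primed hESCs (bars), crotonate-treated primed hESCs (circles) and endodermal cells (squares). In 40 of the genes shown, from MX1 to UBE2L6, the square lies at least 1 unit to the right of the circle.

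Promoter sequence was set beside these values because a repeated GAAA element is known from promoters that respond to interferon. The search was for GAAA, 2 bases of any kind and GAAA again, on both strands, from 250 bases before to 50 bases after the RefSeq start of each gene (GRCh38.p14). Of the 41 interferon-inducible genes that were lower in treated cells, 33 had a promoter in the RefSeq table, and 19 of these (57.6%) held a match, against 996 of 27305 promoters overall (3.65%). Windows of 60 bases around the first match of 6 of these genes are shown to let the element be seen in its context. Capitals mark every match in the window, on the strand of the gene or as its reverse complement, and a match is a description and not a site shown to be used. ISG15 (chr1:1013359-1013418, plus strand, first match at -113 from the start) holds 2 overlapping matches, and IFI27 (chr14:94110603-94110662, plus strand, -108) and IFIT1 (chr10:89392482-89392541, plus strand, -116) hold 2 side by side. IFI6 (chr1:27672314-27672373, minus strand, -156), OAS3 (chr12:112938306-112938365, plus strand, -143) and EPSTI1 (chr13:42992257-42992316, minus strand, -50) show 1 each within these windows.
ISG15: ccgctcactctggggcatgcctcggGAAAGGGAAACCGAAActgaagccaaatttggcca
IFI27: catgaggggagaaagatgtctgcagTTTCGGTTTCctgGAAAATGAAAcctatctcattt
IFIT1: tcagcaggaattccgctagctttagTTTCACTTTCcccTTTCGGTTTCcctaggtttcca
IFI6: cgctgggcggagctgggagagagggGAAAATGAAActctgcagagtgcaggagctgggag
OAS3: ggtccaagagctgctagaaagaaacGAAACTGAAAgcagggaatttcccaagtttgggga
EPSTI1: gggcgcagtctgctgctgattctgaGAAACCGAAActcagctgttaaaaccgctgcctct

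IFIT1 encodes a protein that binds viral RNA lacking the host cap mark, and was listed at 31.2 FPKM in untreated, 15.8 FPKM in treated and 108 FPKM in endodermal cells. IFI6, an antiviral membrane protein, was listed at 12.5, 81.9 and 584 FPKM, OAS3, a relative of OAS2, at 1.1, 4.72 and 64.2 FPKM, and EPSTI1 at 0.362, 3.22 and 30.4 FPKM. The endodermal value was the highest of the 3 in each of these 4 genes. The match was also present in the promoters of IFITM3 and BST2, which were not called. Over all measured genes, it was in 11.4% of the promoters of genes called lower, 2.93% of those called higher and 2.30% of those called neither.

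The interferon genes themselves were chosen for description after their values were seen. IFNB1, the first type I interferon made by infected cells, was listed at 0 in untreated and treated hESCs and reached 2.89 FPKM in endodermal cells. The type III interferon IFNL1 was listed at 1.49 FPKM in untreated hESCs, 0 in treated cells and 3.23 FPKM in endodermal cells, and IFNL2 at 0.413, 0 and 2.15 FPKM. IFNA1 and IFNG were listed at 0 in all 3 columns. The receptor genes IFNAR1 (8.77 and 7.21 FPKM in treated and endodermal cells) and IFNAR2 (14.1 and 12.4 FPKM) and the kinase JAK1 (15.8 and 16.8 FPKM) were not called. The 3 ligand genes that were called lower passed the filter through endodermal cells only.

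Genes that load peptides onto HLA class I molecules were also lower in treated cells, with 8 of 17 measured antigen presentation genes lower and 1 higher (median difference -0.61). Of the 8, 2 reached 1 FPKM in endodermal cells only, PSMB9 among them, and the median without the filter was -0.56. TAP1, a subunit of the peptide transporter of the endoplasmic reticulum, was listed at 11.8 FPKM in untreated, 3.92 FPKM in treated and 57.3 FPKM in endodermal cells. The immunoproteasome subunits PSMB8 (8.72, 1.1 and 18.5 FPKM) and PSMB9 (1.59, 0.262 and 9.30 FPKM) followed the same order. The class I light chain B2M (348 and 485 FPKM in treated and endodermal cells), however, was not called, and CD74, the invariant chain of class II, was higher in treated cells (44.2 and 9.46 FPKM). HLA sequences differ between alleles and resemble each other, so reads of HLA genes may be divided unevenly among them.

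Endoderm transcription factors were mostly at low levels in both groups, and those that differed were mostly higher with crotonate. Of 20 definitive endoderm factors, 14 were measured, of which 6 were higher in treated cells, 1 was lower and 7 were neither (median difference 0.85). Of the 14, 6 reached 1 FPKM in treated cells only, including 5 of those called higher, and 1 in endodermal cells only, so that these could differ in 1 direction only. GATA6, a zinc finger factor needed early in endoderm, was listed at 0.0161 FPKM in untreated, 26.4 FPKM in treated and 3.40 FPKM in endodermal cells. SOX17 was listed at 0, 3.97 and 0.0721 FPKM, and FOXA2 at 0, 1.85 and 0 FPKM. These defining factors of definitive endoderm were thus above 1 FPKM in treated cells and at or near 0 in the cells labelled endodermal, which stood against that label. By RT-qPCR, however, the study reported increased germ layer markers in its endodermal cells, where it assayed GATA4, GATA6 and SOX17. TTR, a carrier protein of visceral endoderm and liver, was listed at 0 in all 3 columns. GATA4 (123 and 99.9 FPKM in treated and endodermal cells) and the surface marker CXCR4 (65.4 and 34.7 FPKM) were abundant in both and were not called. Both are also found in mesoderm. GATA6, the only gene called higher here that reached 1 FPKM in both groups, was counted in the lateral plate list as well, as was GATA4. LHX1 was also counted in the lists of primitive streak and of paraxial and intermediate mesoderm, so the lists are not independent. HHEX, a factor of anterior endoderm, was higher in treated cells (1.45 and 0.177 FPKM), although not after quantile normalization. LHX1 (3.45 and 0.420 FPKM) and OTX2 (5.99 and 0.696 FPKM), which pattern the anterior embryo, were higher on both scales. PRDM1, a repressor used by endoderm and germ cells, was the member that was lower in treated cells (0.513 and 2.87 FPKM).

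Of 29 secreted proteins and factors of gut, liver and yolk sac, 8 were measured, with 3 higher in treated cells and none lower, and the median over the list was 0.07 without the filter. The apolipoprotein genes APOA1 (0.255, 22.3 and 1.13 FPKM in untreated, treated and endodermal cells), APOC1 (14, 35.3 and 7.63 FPKM) and APOA2 (0, 4.36 and 0 FPKM) were the 3. AFP, ALB and SERPINA1, which define fetal liver, did not reach 1 FPKM in either group. Genes of the primitive streak differed less, with 2 of 10 measured members higher, none lower and a median difference of 0.28, and both of those higher reached 1 FPKM in treated cells only. The homeobox gene EVX1, expressed in posterior streak, stood at 25 and 25.8 FPKM, and DKK1, a secreted WNT antagonist, at 104 and 102 FPKM. SP5, a direct target of WNT signalling, was higher in treated cells (2.77 and 0.551 FPKM). Among pluripotency genes, POU5F1, NANOG and SOX2 were below 1 FPKM in both groups, and 3 of 11 measured members were higher in treated cells. Of the 11, 3 reached 1 FPKM in treated cells only, including 1 of those called higher. The median difference was 0.57, and 0.34 without the filter. TDGF1, the Nodal co-receptor CRIPTO, was the most different of the members called higher, at 299 FPKM in untreated, 14.7 FPKM in treated and 1.62 FPKM in endodermal cells.

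Genes of lateral plate mesoderm had a median level of 0.07 FPKM in untreated, 32.5 FPKM in treated and 13.7 FPKM in endodermal cells. Those that differed between the groups were mostly higher with crotonate. Of 23 measured genes of lateral plate and heart-field mesoderm, 12 were higher in treated cells and 1 was lower (median difference 1.04). HAND2, a transcription factor that heart and limb need, was listed at 0.0769 FPKM in untreated, 172 FPKM in treated and 57.8 FPKM in endodermal cells. PDGFRA, the receptor for platelet-derived growth factor on early mesoderm, was listed at 0.327, 19 and 2.74 FPKM, and PRRX1, a homeobox gene of limb mesenchyme, at 0.0451, 68.2 and 14.6 FPKM. Both groups were far above the untreated level in these genes, and the treated cells were the higher. The cardiac T-box gene TBX20 (32.5 and 9.64 FPKM) and the growth factor receptor KDR (91.6 and 25.4 FPKM) differed in the same direction. KDR was at 23.3 FPKM in untreated hESCs, so that its endodermal level was close to the untreated one. ISL1, a factor of second heart field that amnion also expresses, was the member lower in treated cells (19.4 and 46.9 FPKM). The most abundant factor, HAND1 (374 and 229 FPKM), was not called, and neither were PITX1 (125 and 122 FPKM) and BMP4 (104 and 138 FPKM). Genes of paraxial and intermediate mesoderm did not share this direction, with 3 of 10 measured members higher, 3 lower and 4 neither, and 3 members reaching 1 FPKM in each group alone. MEOX1, a factor of somites, was at 6.27 and 1.47 FPKM, and EYA1, a factor of early kidney, at 0.647 and 4.28 FPKM.

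HOX genes, whose order along their 4 clusters matches the order of their use along the body axis, were listed at or near 0 in untreated hESCs. Of 39 HOX genes, 34 were measured, and 17 of them were higher in treated cells with none lower (median difference 0.98). After quantile normalization 12 were higher. The difference was positive in 33 of 34 genes, although that of HOXB2 (0.06; 19.3 and 18.5 FPKM) is smaller than the shift of 0.09 over all genes. HOXC13, listed at 0.560 and 1.38 FPKM, had the only negative difference. HOXA6 (13 and 2.68 FPKM), HOXA5 (17.6 and 4.21 FPKM), HOXD12 (8.42 and 1.67 FPKM) and HOXC10 (19 and 4.91 FPKM) differed most. The median difference was 0.85 in the HOXA cluster, 1.11 in HOXB, 0.99 in HOXC and 0.84 in HOXD, so no cluster stood apart from the others. Genes of high number, used in the posterior body, were reached in both groups, such as HOXA13 at 54.2 and 31.5 FPKM. A filter at 1 FPKM admits a gene listed at 0 in one group only when the other is high, but 30 of the 34 genes reached 1 FPKM in endodermal cells and 33 did in treated cells.

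**Figure D3:**
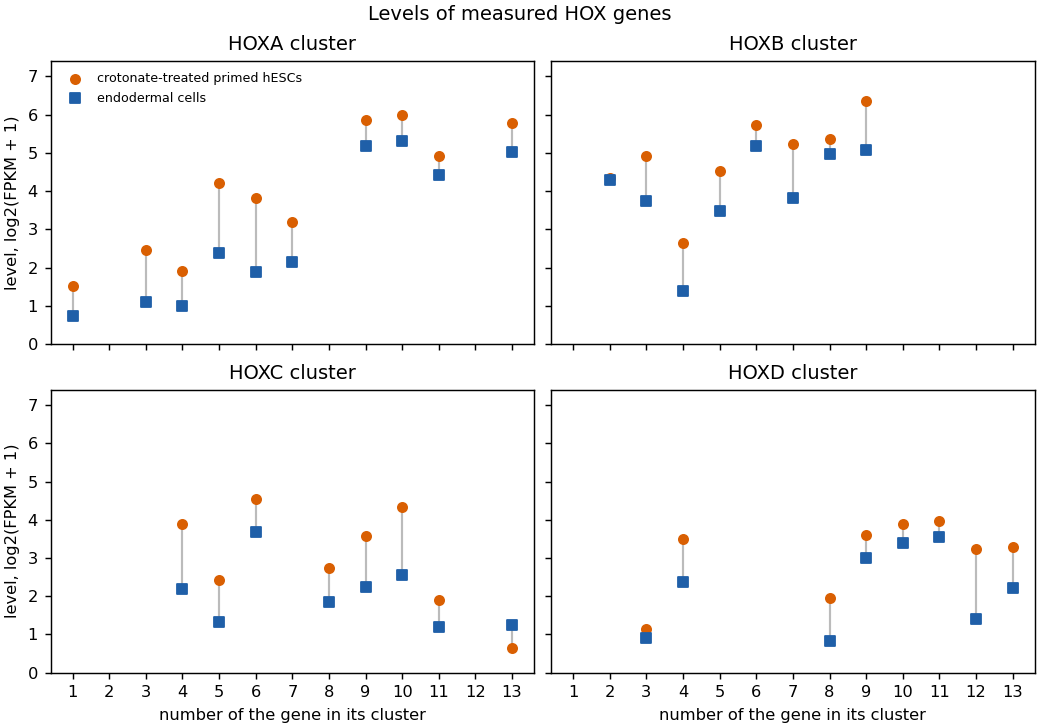
Levels of the 34 measured HOX genes as log2(FPKM + 1) against the number of the gene in its cluster, in crotonate-treated primed hESCs (circles) and endodermal cells (squares). The circle lies above the square in 33 genes, the exception being HOXC13.

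Matrix and mesenchyme genes differed in both directions. Of 28 measured mesenchyme and proteoglycan genes, 11 were higher and 5 lower in treated cells (median difference 0.64), and of 30 collagen chains 8 were higher and 4 lower (0.42). HAPLN1, a link protein that holds hyaluronan to proteoglycans, was listed at 0.266 FPKM in untreated, 570 FPKM in treated and 98.6 FPKM in endodermal cells. COL6A3, a chain of type VI collagen, was listed at 1.01, 734 and 172 FPKM, and the small proteoglycan FMOD at 0, 25.3 and 4.48 FPKM. On the other side were POSTN, a matrix protein of fibroblasts and heart valves (0.889, 2.86 and 34.1 FPKM), NT5E, the CD73 ectonucleotidase (0.996, 0.465 and 10.4 FPKM), and TNC, tenascin C (2.08, 29.9 and 111 FPKM). The most abundant chain, COL3A1 (1415 and 955 FPKM), and COL1A1 (921 and 836 FPKM) were not called. Of 27 proteases and inhibitors of the matrix, 7 were lower and 2 higher in treated cells. The gelatinase MMP9 was at 1.71, 3.75 and 41.5 FPKM, and PLAT, tissue plasminogen activator, at 2.65, 13.8 and 63.2 FPKM.

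Epithelial genes were lower in treated cells. Of 22 measured keratins, claudins and other epithelial genes, 17 were lower and 1 higher (median difference -1.63), the same counts as after quantile normalization. Of the 17, 8 reached 1 FPKM in endodermal cells only, and the median over the list without the filter was -1.50. CDH1, the adhesion protein E-cadherin, was listed at 101 FPKM in untreated, 2.17 FPKM in treated and 33.8 FPKM in endodermal cells, and EPCAM, an adhesion protein of hESCs and epithelia, at 144, 8.73 and 51.6 FPKM. The tight junction genes CLDN6 (396, 19.8 and 200.4 FPKM) and CLDN4 (15.4, 1.77 and 32.7 FPKM) followed. In 15 of the 17 genes the treated level was below the untreated one, and in 12 the endodermal level was as well, so that in those 12 endodermal cells stood between the other columns. The exceptions were KRT8 (214, 677 and 2024 FPKM) and KRT18 (186, 420 and 1318 FPKM), the keratin pair of simple epithelia, which were above the untreated level in both groups. CLDN11, a claudin of myelin and testis, was the member higher in treated cells (4.13 and 0.500 FPKM). SNAI1 (63.5 and 28.8 FPKM) and SNAI2 (154 and 63.1 FPKM), neural crest markers that can repress CDH1, were higher in treated cells. The repressors ZEB2 (25.5 and 15.4 FPKM) and ZEB1 (4.86 and 3.61 FPKM), named after their values were seen, were not called. What part any of these repressors had in the level of CDH1 was not tested.

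**Figure D4:**
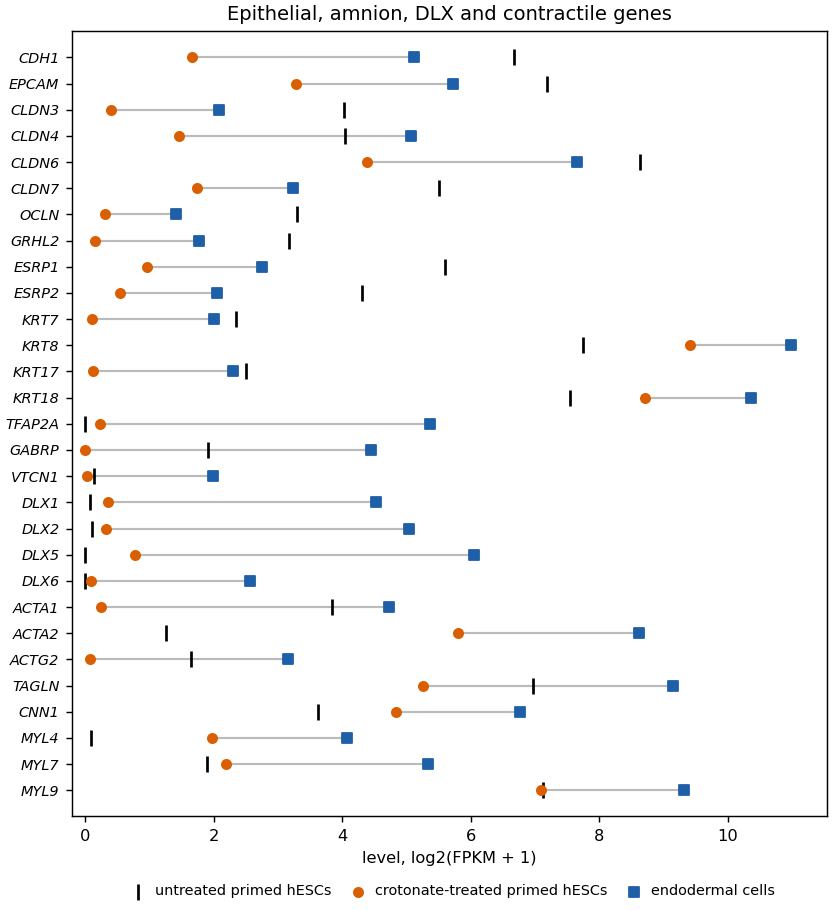
Levels as log2(FPKM + 1) of 29 epithelial, amnion, DLX and contractile genes picked from the lists to show the groups named in the text, in untreated primed hESCs (bars), crotonate-treated primed hESCs (circles) and endodermal cells (squares). Each gene shown was called lower in treated cells, while the untreated level lies to the right of the endodermal one in most epithelial genes and at or near 0 in TFAP2A and the DLX genes.

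Markers of amnion and trophoblast accompanied the epithelial genes. Of 15 measured members of 24, 9 were lower in treated cells, 1 was higher and 5 were neither (median difference -1.23). However, 8 of the 15, among them 7 of those called lower, reached 1 FPKM in endodermal cells only and so had to differ in this direction, and the median was -0.55 over all 24 genes without the filter. The list sum was 16.1 FPKM in untreated, 225 FPKM in treated and 385 FPKM in endodermal cells. TFAP2A, a transcription factor of surface ectoderm, amnion and neural crest, was listed at 0 in untreated, 0.171 FPKM in treated and 40.2 FPKM in endodermal cells. GABRP, a GABA receptor subunit used as a marker of amnion, was listed at 2.78, 0 and 20.8 FPKM, and VTCN1, an immune checkpoint ligand of the same tissue, at 0.107, 0.0270 and 2.99 FPKM. The hormone subunits CGA and CGB5 and the factor ELF5, which define trophoblast, did not reach 1 FPKM in either group. The placental growth factor PGF was higher in treated cells (44.6 and 10.3 FPKM). What part cells of these types had in the differences of epithelial or interferon-inducible genes was not tested.

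The homeobox genes DLX5 (0, 0.724 and 65.4 FPKM in untreated, treated and endodermal cells), DLX2 (0.0790, 0.254 and 32.0 FPKM), DLX1 (0.0532, 0.286 and 21.9 FPKM) and DLX6 (0, 0.0734 and 4.92 FPKM) were lower in treated cells. They lie as 2 pairs of neighbours, DLX1 and DLX2 on chromosome 2 and DLX5 and DLX6 on chromosome 7, and act in branchial arches, surface ectoderm and forebrain. They belonged to the neural crest list, in which 7 of 14 measured genes were lower and 3 higher, although 5 of the 7 reached 1 FPKM in endodermal cells only and the median without the filter was -0.03. SOX10, PAX3 and FOXD3, which define neural crest, did not reach 1 FPKM in either group. MSX2, a homeobox gene induced by BMP, was lower in treated cells as well (0.206, 40.1 and 132 FPKM).

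Contractile genes of smooth and cardiac muscle were lower in treated cells in 13 of 23 measured members and higher in 4 (median difference -1.11), 5 of the 13 reaching 1 FPKM in endodermal cells only. TAGLN, an actin-bundling protein of smooth muscle, was listed at 124 FPKM in untreated, 37.0 FPKM in treated and 563 FPKM in endodermal cells. ACTA2, smooth muscle actin, was at 1.41, 54.8 and 393 FPKM, and ACTA1, skeletal actin, at 13.3, 0.184 and 25.6 FPKM. MYL7, an atrial myosin light chain, was at 2.74, 3.57 and 39.2 FPKM. The members that were higher in treated cells were all troponin genes, namely TNNI3 (19.7, 14.3 and 1.47 FPKM), TNNT1 (34.5, 61.5 and 12.0 FPKM), TNNI1 (0.454, 13.4 and 2.68 FPKM) and TNNT2 (4.59, 11.8 and 5.19 FPKM), the last not after quantile normalization. The heavy chains MYH6, MYH7 and MYH11, which define differentiated cardiac and smooth muscle, did not reach 1 FPKM in either group.

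Immediate early genes, transcribed quickly after growth factor, stress or stretch signals, were lower in 10 of 24 measured members and higher in none (median difference -0.90). Over all measured genes 4.91% were lower. Of the 10, 2 reached 1 FPKM in endodermal cells only, EGR1 among them, and the median without the filter was -0.74. EGR1 was at 1.79 FPKM in untreated, 0.943 FPKM in treated and 12.1 FPKM in endodermal cells, and FOS at 1.31, 2.29 and 19.8 FPKM. CYR61 (44.2, 31.8 and 178 FPKM) and CTGF (79.4, 32.3 and 153 FPKM), matricellular proteins induced through YAP and serum response factor, also differed, and MYC (22.5 and 21.7 FPKM in treated and endodermal cells) was not called. Immediate early genes respond to handling at harvest, and how the groups were harvested was not given in the sources used here, and the part of handling was not tested. The p53 targets were lower in 5 of 22 measured members and higher in none, with CDKN1A, the cyclin-dependent kinase inhibitor p21, at 14.2, 32.0 and 124 FPKM. Of 39 cell cycle genes, CDKN1A among them, 36 were neither.

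The largest single difference in each direction was in a gene of a secreted protein. SPP1, osteopontin, a matrix phosphoprotein of bone and epithelia, was listed at 9.89 FPKM in untreated, 0.873 FPKM in treated and 254 FPKM in endodermal cells (difference -7.09). CST1, a salivary inhibitor of cysteine proteases, was listed at 2.79, 226 and 0.706 FPKM (7.05), while its neighbour CST3, named after its values were seen, stood at 89.3 and 92.7 FPKM in treated and endodermal cells. The cystatins of the CST1 type have near-identical sequences, so that reads may have been divided among them. Its relatives CST2 (0.0991 and 0.732 FPKM in treated and endodermal cells), CST4 (0.234 and 0.0384 FPKM) and CST5 (0.0918 and 0 FPKM) did not reach 1 FPKM in either group. KISS1, the precursor of kisspeptin, was listed at 0.128, 11.1 and 0.158 FPKM. HGF, hepatocyte growth factor, a ligand of mesenchyme that acts on epithelia, was listed at 0.0454, 162 and 12.9 FPKM. CALCRL, the receptor of adrenomedullin and calcitonin gene-related peptide, was listed at 0.180, 17.5 and 0.581 FPKM, and its ligand gene CALCA at 0.146, 12.3 and 0.476 FPKM. CALCB, the neighbour of CALCA, named after its values were seen, was higher in treated cells as well and more abundant (2.27, 146 and 19.8 FPKM). LIFR, a receptor chain for leukaemia inhibitory factor, was listed at 3.41, 39.5 and 3.09 FPKM. On the endodermal side, LPL, lipoprotein lipase, was listed at 8.34, 0.119 and 31.9 FPKM, and IGFBP7, which binds insulin-like growth factors, at 0.278, 32.1 and 517 FPKM.

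Signalling genes were examined by pathway because the differentiation medium supplied a BMP, an Activin and a WNT agonist. Of 26 measured BMP genes 4 were higher and 7 lower in treated cells (6 lower after quantile normalization), and of 28 WNT genes 9 were higher and 6 lower. Of the BMP genes called lower, 2 reached 1 FPKM in endodermal cells only. Among WNT genes, 2 of the 9 reached it in treated cells only and 2 of the 6 in endodermal cells only. BMP5, a ligand, was listed at 0 in untreated, 39.6 FPKM in treated and 2.56 FPKM in endodermal cells, and BMP2 at 0.776, 42.9 and 9.15 FPKM. ID1, a direct BMP target, was lower in treated cells and just past the limit (70.2, 185 and 378 FPKM). Its relatives ID2 (106 and 106 FPKM in treated and endodermal cells) and ID3 (245 and 291 FPKM) were not called. Among WNT genes the ligand potentiator RSPO3 (0.0132, 76.7 and 7.11 FPKM) and the receptor LGR5 (0.0202, 6.96 and 1.18 FPKM) were higher in treated cells. The ligands WNT6 (0, 0.870 and 19.9 FPKM) and WNT9B (0.486, 1.51 and 16.5 FPKM) were lower, and the general target AXIN2 (15 and 10.6 FPKM) was not called. WNT ligands thus differed in both directions, as WNT11 was higher in treated cells (0.189, 17.9 and 3.21 FPKM). Of 27 TGF-beta, Activin and Nodal genes, 5 were higher and 8 lower, with TGFBI, a matrix target of TGF-beta, at 6.97, 122 and 572 FPKM. Of the 5, 2 reached 1 FPKM in treated cells only, and of the 8, 1 in endodermal cells only. The median difference was -0.19, and 0 without the filter. Of 24 FGF genes 6 were higher and 2 lower (median difference 0.61, and 0.22 without the filter). The 2 lower genes reached 1 FPKM in endodermal cells only, and 1 of the 6, FGF19, in treated cells only. Among the 6 were FGF19, a ligand (4.57, 4.28 and 0.462 FPKM), the receptor FGFR4 (42.3, 18.1 and 5.6 FPKM) and the feedback phosphatase DUSP4 (4.40, 9.28 and 2.96 FPKM).

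**Figure D5:**
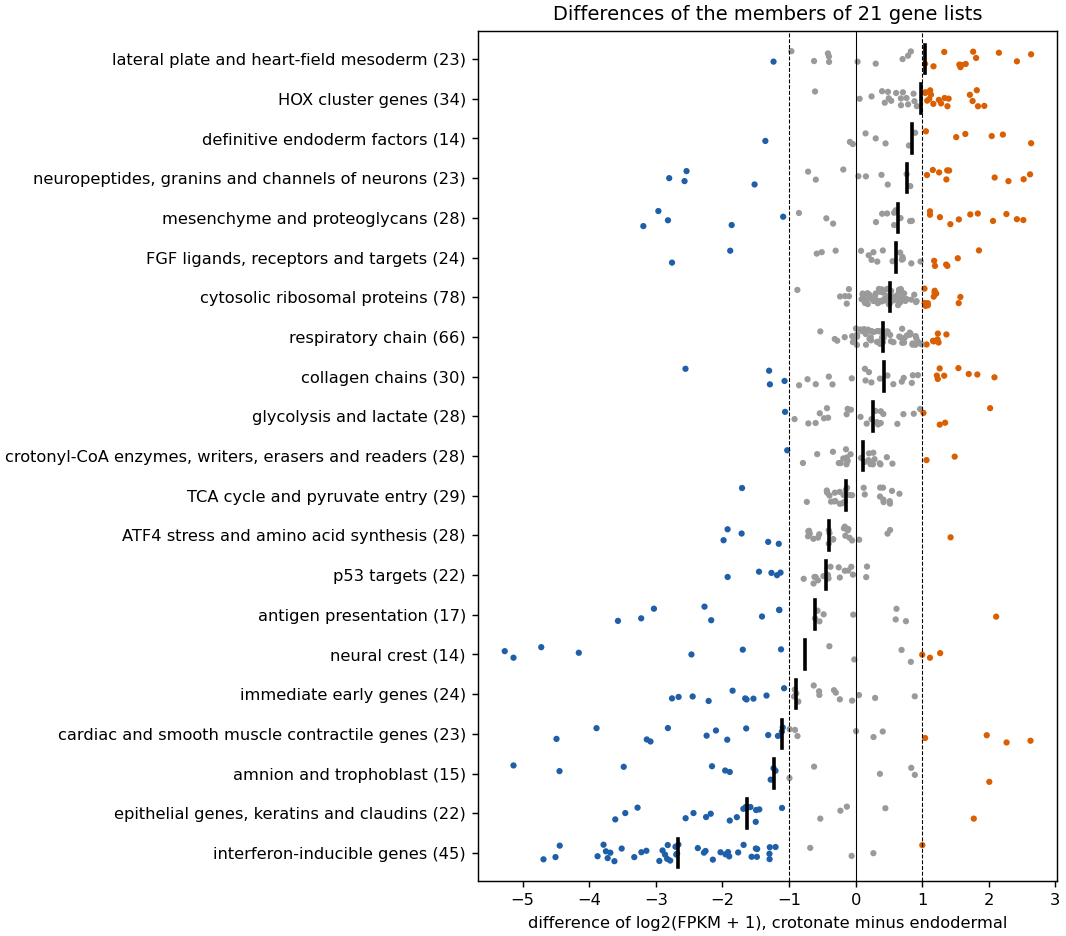
Differences of log2(FPKM + 1), crotonate-treated minus endodermal cells, for the measured members of 21 lists, whose number of measured members is in brackets. Points to the right of the right dashed line were called higher (orange), those to the left of the left one lower (blue) and the others neither (grey), and black bars are medians. The medians run from -2.66 in interferon-inducible genes to 1.04 in lateral plate and heart-field mesoderm.

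Imprinted genes of fetal growth included some of the most abundant differences. IGF2, a growth factor expressed from the paternal copy, was at 2.17 FPKM in untreated, 1177 FPKM in treated and 319 FPKM in endodermal cells. CDKN1C, a cell cycle inhibitor of the same imprinted region, was at 5.03, 82.5 and 18.9 FPKM, and DLK1, a Notch-related surface protein, at 0.199, 59.2 and 9.29 FPKM. All 3 were thus above the untreated level in both groups and higher in treated cells. Of 26 measured genes of this list, 6 were higher and 3 lower, the latter IGFBP7, IGFBP3 (1.2, 32.4 and 148 FPKM) and IGFBP2 (217, 148 and 325 FPKM), all carriers of insulin-like growth factors.

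Among metabolic genes the shares called were read against all measured genes, of which 87.6% were neither. Of 28 measured glycolysis genes 4 were higher in treated cells, 1 was lower and 23 were neither. GAPDH was at 2547 FPKM in untreated, 1156 FPKM in treated and 1891 FPKM in endodermal cells and was not called, nor was ENO1 at 841, 511 and 415 FPKM. PDK1, a kinase that inhibits pyruvate dehydrogenase and so the step from pyruvate to acetyl-CoA, was higher in treated cells (17.6, 41.8 and 9.55 FPKM). The hexokinase HK2 (27.9, 7.99 and 2.54 FPKM) and the lactate carrier SLC16A1 (166, 82.8 and 33.9 FPKM) were higher as well. LDHA, lactate dehydrogenase A, was just past the limit (1.02; 239 and 118 FPKM), and the glucose carrier SLC2A3 was lower (126 and 264 FPKM). PDK1 and HK2 also stand among 21 hypoxia targets, of which 5 were higher and none lower. Of 29 TCA cycle genes 28 were neither, the exception being the malic enzyme ME3 (1.15 and 6.01 FPKM), and of 39 genes of fatty acid oxidation 38 were neither. In cholesterol synthesis 2 of 32 genes were higher in treated cells, 1 was lower and 29 were neither. HMGCS1, an early enzyme of the pathway, was among those higher (172 and 75.8 FPKM).

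Of 28 genes that make crotonyl-CoA or write, erase or read crotonylation, 25 were neither. The shares called, 7.14% higher and 3.57% lower, were near those over all measured genes (7.48% and 4.91%). The writer EP300 was at 23.5 FPKM in untreated, 13 FPKM in treated and 14.3 FPKM in endodermal cells, and ACSS2, which makes crotonyl-CoA from crotonate, at 15.7, 28.0 and 30.9 FPKM. The reader MLLT3 was higher in treated cells (1.84, 47.1 and 16.2 FPKM), and CDYL2, a relative of the crotonyl-CoA hydratase CDYL, was higher at low levels (2.27 and 0.564 FPKM), though not after quantile normalization. DPF2, a reader with a double PHD finger, was lower (20.5 and 42.8 FPKM). Genes of the ATF4 response to amino acid shortage were lower in 5 of 28 (17.9%, against 4.91% over all measured genes) and higher in 1 (3.57%, against 7.48%). ASNS, asparagine synthetase, was at 78.4 FPKM in untreated, 8.69 FPKM in treated and 30.7 FPKM in endodermal cells, and the amino acid carrier SLC7A5 at 101, 34.8 and 140 FPKM.

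Genes of small abundant proteins lay slightly higher in treated cells. Of 78 measured cytosolic ribosomal protein genes 11 were higher and none lower (median difference 0.52), and of 66 respiratory chain genes 7 were higher and none lower (0.42). The shares called higher were 14.1% and 10.6%, against 7.48% over all measured genes. After quantile normalization 8 ribosomal genes were higher and 1 was lower, while 7 respiratory genes were higher. RPL34 (336 and 112 FPKM) and RPS21 (306 and 104 FPKM) differed most among ribosomal proteins, and NDUFA2 (38.9 and 14.5 FPKM) and NDUFB3 (42.4 and 17.3 FPKM) among respiratory subunits. The median difference over all genes was 0.41 where the longest transcript was under 700 bases, 0.07 at 1000 to 2000 bases and 0.21 at 8000 bases or more, so that it did not follow length in one direction. The median longest transcript was 1912 bases in the ribosomal and 1591 bases in the respiratory list. Ribosomal protein genes have many processed pseudogenes, so that reads may have been divided between copies.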

How the data were processed

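Bulk mRNA of 2 labelled samples per group was sequenced as paired-end reads. The authors deposited FPKM values in 1 column per group. They mapped reads to hg38, scaled them by trimmed means of M values and converted them to FPKM. The submitters' processing notes name StringTie 1.3.0, HTSeq 0.6.0, Cufflinks 1.1.0, TopHat 1.3.2 and edgeR. How samples were combined, and whether the tables were normalized together, was not given in the sources used here. Other columns per sample numbered 0. Columns were joined by gene symbol, leaving out 27 symbols turned into dates. Of the rest, 18247 were found in GENCODE 44 by symbol and 748 by a synonym.

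The limma test planned for values per sample could not be run with 1 column per group. The planned rule without a test was used, with a pseudocount of 1, a filter of 1 FPKM and a 2-fold limit. The 44 gene lists, and the rules, were written with earlier results of these data known. Genes named are the study's markers and enzymes, the 15 largest differences each way, up to 5 called members of each list each way, the most abundant genes and lineage markers. Other list members, interferons and neighbours were added after their values were seen. The calling code was tested on simulated data. Alternatives were other scalings, pseudocounts, filters and folds. Depth appears in the report. Some genes of the lists are counted but not reported here by name. Python 3.11.15, numpy 2.4.6, pandas 2.3.3 and matplotlib 3.10.9 were used.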

Additional observations from a re-analysis of the deposited data

How the results depend on the processing

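No paired analysis was possible because each group has 1 column of values and none per sample, and replicates could not be left out in turn for the same reason. The counts of 959 genes higher and 629 lower became 797 and 733 after centring on the median and 838 and 702 after scaling by a trimmed mean of ratios. A pseudocount of 0.1 gave 1502 higher and 830 lower. A limit of 1.5-fold gave 2475 and 1506, and one of 4-fold 146 and 165. A filter of 5 FPKM gave 656 and 465, and leaving out repeated symbols changed nothing, as there were none. The share of called genes that were higher was 60.4% as deposited and 50.5% after quantile normalization. Of 262 named genes none changed sign under quantile normalization, centring or a pseudocount of 0.1, while the calls of 9, 14 and 0 of them changed. Among these 262, which leave out genes added after their values were seen, the calls lost were all of genes higher in treated cells and within 0.1 of the limit of 1. Over all measured genes, quantile normalization lost 210 higher and 8 lower calls. List medians kept their sign under quantile normalization in 43 of 44 lists, the exception being chemokines and cytokines (0.21 and -0.29). With a filter of 5 FPKM, the medians of primitive streak (0.28 to -0.01) and hedgehog genes (0.11 to -0.61) changed sign. Without the filter no list median took the opposite sign (that of TGF-beta genes went from -0.19 to 0), but medians moved towards 0 in gut and liver proteins (0.94 to 0.07), neural crest (-0.76 to -0.03), neuropeptides (0.77 to 0.16), amnion and trophoblast (-1.23 to -0.55), FGF (0.61 to 0.22) and WNT genes (0.40 to 0.04). Definitive endoderm factors went from 0.85 to 0.66, and to 1.43 with a pseudocount of 0.1.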

Other observations

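Neighbouring genes that were higher in treated cells were found on chromosome 12, where 7 of 11 consecutive measured genes from SLC6A15 to ATP2B1 were called higher and none lower (median difference 1.13). They lie between 84859491 and 89709366 on hg38 and include NTS, neurotensin (41.9 FPKM in untreated, 42.2 FPKM in treated and 6.52 FPKM in endodermal cells), KITLG, the ligand of KIT (4.16, 5.91 and 0.633 FPKM), and DUSP6, a phosphatase of the ERK pathway (91.0, 192 and 84.2 FPKM). Of all such windows this one held the most genes called higher, and it was chosen after the values were seen. Over whole chromosomes the median difference ran from -0.12 on chromosome 16 to 0.26 on chromosome 13.

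Neuropeptides and channels of neurons were higher in treated cells in 10 of 23 measured members and lower in 4 (median difference 0.77). Of these, 6 of the 10 reached 1 FPKM in treated cells only and 2 of the 4 in endodermal cells only, and the median without the filter was 0.16. TAC3, the precursor of neurokinin B, was at 5.43 FPKM in untreated, 15.1 FPKM in treated and 2.79 FPKM in endodermal cells. NPPB, a natriuretic peptide of heart muscle, was lower (0.130, 2.27 and 21.7 FPKM). NCAM1, a neural cell adhesion molecule also found in heart and mesoderm, was higher in treated cells (2.85, 68.9 and 10.8 FPKM), while PAX6 and SOX1, which define neuroectoderm, did not reach 1 FPKM in either group.

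The 4 measured metallothionein genes, which encode binders of zinc and copper, were below the untreated level in both groups. MT2A was at 77.3 FPKM in untreated, 11.5 FPKM in treated and 45.7 FPKM in endodermal cells, and MT1X, not called, at 59.3, 10.9 and 8.25 FPKM. SLC39A2, a zinc importer, was at 0.0857, 61.8 and 16.8 FPKM. RUNX1, a factor of blood formation, was at 0.0741, 0.931 and 15.2 FPKM, while PLVAP, a protein of fenestrated endothelium, was at 0.105, 56.3 and 3.0 FPKM. PECAM1 and CDH5, which define endothelium, did not reach 1 FPKM in either group. The chemokine genes CCL2 (5.51, 73.3 and 9.99 FPKM) and CXCL14 (1.01, 1.62 and 34.7 FPKM) differed in opposite directions. The promoter letters searched for sterol, metal and amino acid response were in 0 of 1, 1 of 1 and 2 of 4 promoters of called lower members of their lists, too few to describe.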
